A study of Mus musculus with 15 samples.

Results

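The genes described here are the matrix metalloproteinases (MMPs), the ADAM and ADAMTS proteases and the tissue inhibitors of metalloproteinases (TIMPs), taken as every gene symbol of the count tables that begins with Mmp, Adam or Timp and that has 10 or more counts summed over the 15 libraries. Of 24411 symbols, 85 carried such a name and 57 of them reached 10 counts. Of these 57, 38 passed the low-count filter and were tested among 13055 genes. The libraries are bulk poly(A) RNA-seq of mouse liver in 3 groups, with 6 libraries labelled LATS KO, 5 labelled Yap OE and 4 labelled TdTomato, where Lats1 and Lats2 encode the kinases that restrain the transcriptional co-activator YAP. The series describes the groups as Lats knockout, Yap overexpression and wild type. The sources used here give no age, strain, allele, Cre driver, vector, dose or time after treatment, and their extraction text describes mice of another design, so none of it was taken over. No label states that the libraries of a group come from separate animals, so the p-values below reflect the variation among libraries, part or all of which may be technical.

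MMPs are zinc proteases that cut collagens, elastin and other matrix proteins. Most are secreted as inactive precursors, and the membrane-type MMPs stay anchored at the cell surface. ADAMs shed membrane proteins such as growth factor precursors and cytokine receptors, ADAMTS proteases cut proteoglycans and trim procollagens, and the ADAMTS-like proteins share their accessory domains but have no protease domain. The 4 TIMPs bind and block these enzymes. In liver this system is best known from fibrosis, where stellate cells, macrophages and bile duct cells supply many of its members.

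Gene counts per library ran from 6166680 to 28225360. LATS KO 3 and TdTomato 1 stood apart, with 89.9% and 78.5% of reads unmapped, against 2.53% to 16.7% elsewhere, and with 9710 and 8501 genes detected, against 13372 to 15641. A 0 in either library is therefore weak evidence of absence, and the numbers of genes called without both libraries are given beside the main ones. Lats1 lay between 0 and 27.4 CPM (counts scaled to library size) in LATS KO and between 0 and 46 in TdTomato libraries, and Lats2 between 7.67 and 41 and between 0 and 19.6, and neither passed the test in LATS KO (adjusted p = 0.62 and 0.7). The Lats1 values of 0 belong to LATS KO 3 and TdTomato 1, and without them Lats1 lay between 10.5 and 27.4 CPM in LATS KO and between 28.7 and 46 CPM in TdTomato libraries, with no overlap. Whole-gene counts do not show whether an exon was deleted, so they do not check the knockout label. Yap1 lay between 146 and 212 CPM in Yap OE and between 94.9 and 115 CPM in TdTomato libraries (log2 fold change 0.82, adjusted p = 0.0043). Summed CPM of 8 hepatocyte markers was 39278 to 180588 in LATS KO, 75068 to 134348 in Yap OE and 102325 to 167334 in TdTomato libraries, with no marker at 0 throughout a group. Of the 8, 3 fell in Yap OE and 1 in LATS KO over TdTomato, where 10.8% and 0.973% of all tested genes fell, with 6 and 2 of the 8 at an unadjusted p under 0.05. Their median log2 fold change was -1.51 in Yap OE and -0.53 in LATS KO, and the part of this in the results below was not tested.

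Most of the tested genes were higher where Yap was overexpressed. In the Yap OE against TdTomato comparison 23 of the 38 rose and 2 fell at an adjusted p under 0.05, where 17.9% of all tested genes rose and 10.8% fell. In the LATS KO against TdTomato comparison 12 of the 38 rose and 0 fell, where 10% of all tested genes rose and 0.973% fell, and 23 of the 38 had an unadjusted p under 0.05. Between Yap OE and LATS KO 1 of the 38 was higher and 0 were lower, where 0.498% of all tested genes were higher and 0.490% lower. The median log2 fold change of the 38 was 3.99 for Yap OE over TdTomato, 2.65 for LATS KO over TdTomato and 0.81 for Yap OE over LATS KO, beside medians of 0.17, 0.13 and -0.03 over all tested genes. With genes of 3 or fewer TdTomato counts set at their bound or count ratio, the medians over TdTomato were 3.95 and 2.64. Of the 38, 7 had 0 and 7 had 1 to 3 TdTomato counts. These genes passed the count rule and the filter through the other groups, so their direction was largely set beforehand, here and in the comparison of single libraries below. Such genes among the higher calls were Adam33, Adamts2, Adamts9, Adamts15, Mmp12 and Timp1 in both comparisons with TdTomato. Mmp9 was another in LATS KO, and Adamts14, Adamtsl2, Mmp2, Mmp23 and Mmp24 were others in Yap OE. The same filter applied to all tested genes, but the share of such genes among them was not counted. The percentages of all tested genes therefore do not correct for this. Both comparisons with TdTomato use the same 4 libraries, so their overlap is no independent result.

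With LATS KO and TdTomato fitted alone, edgeR called 0 of the 38 higher and 0 lower, with 8 at an unadjusted p under 0.05. Over all 12020 genes of that fit it called 0 higher and 1 lower, with 2013 at an unadjusted p under 0.05. DESeq2 on all libraries called 19 members higher and 2 lower, beside 2535 and 359 of 13055 genes. Without LATS KO 3 and TdTomato 1, 15 members were higher in LATS KO than in TdTomato, 31 higher and 3 lower in Yap OE than in TdTomato, and 11 higher and 1 lower in Yap OE than in LATS KO. Of 13256 genes in that fit, 1816 were higher and 429 lower, 3608 higher and 2808 lower, and 737 higher and 951 lower in the same 3 comparisons. Leaving out 1 library at a time gave 4 to 14 higher calls in LATS KO and 19 to 28 in Yap OE, each over TdTomato, with the lowest LATS KO count without TdTomato 2 or TdTomato 4. Over all tested genes these fits called 554 to 1625 higher in LATS KO and 1743 to 2925 in Yap OE. Timp2, Adam15 and Mmp12 kept their LATS KO call without each library in turn.

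Read without a model, every Yap OE library was above every TdTomato library for 35 of all 57 members, where this held for 26.5% of the 15591 symbols with 10 or more counts. Every LATS KO library was above every TdTomato library for 5 of the 57, against 5.60% of those symbols. LATS KO 3 had a count for only 19 of the 57, and a 0 there prevents such a separation. Mmp9, Mmp12, Adamtsl4, Adamts2 and Adamts9 missed it through that library alone. The separation was not counted without LATS KO 3, so the Yap OE and LATS KO counts are not on an equal footing. The LATS KO libraries themselves were spread out. For Timp2, Mmp14, Adamts1 and Adamts5, LATS KO 1 to 3 each lay above LATS KO 4 to 6. Mmp19 and Adam23 had the reverse order, and Adam11 and Mmp12 overlapped between these libraries. How many of the 57 members or of all genes were split either way was not counted.

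**Figure D1:**
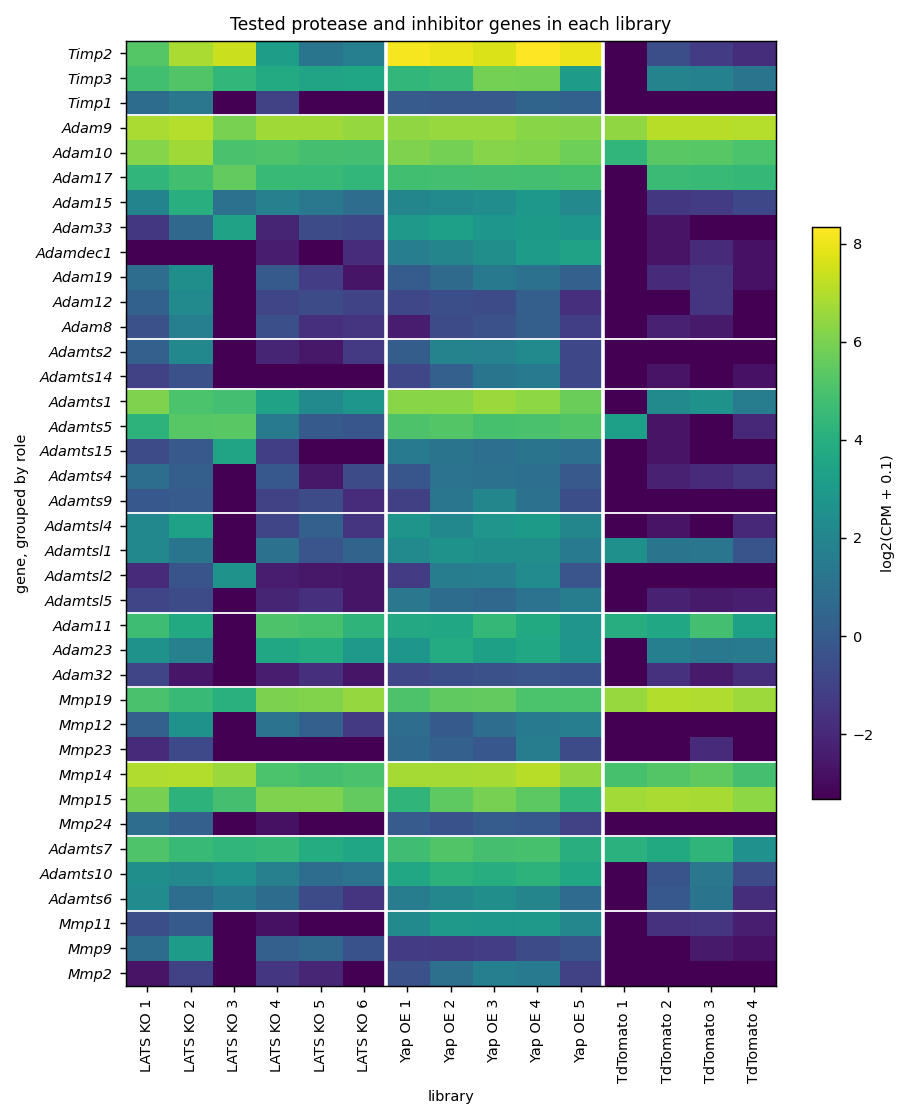
Level of each tested gene (rows, grouped by role) in each library (columns: LATS KO, Yap OE, TdTomato), as log2(CPM + 0.1) on a colour scale. All 38 tested genes are shown. Timp2 is the brightest row in the 5 Yap OE libraries, at 211 to 323 CPM, and the dark cells of LATS KO 3 and TdTomato 1 are values of 0.

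All 3 tested inhibitors rose in both comparisons with TdTomato, where 17.9% (Yap OE) and 10% (LATS KO) of all tested genes rose. Timp2 (chr11:118301069-118355740, minus strand, mm10) encodes a secreted inhibitor that also forms, with membrane-anchored MMP14, the complex that activates pro-MMP2. It had 293, 251, 211, 323 and 259 CPM in Yap OE libraries 1 to 5, against 0, 0.607, 0.318 and 0.192 CPM in TdTomato libraries 1 to 4. In LATS KO libraries 1 to 6 it had 38.5, 114, 168, 8.94, 2.23 and 3.12 CPM. All 5 Yap OE libraries lay above all LATS KO libraries, and all 6 LATS KO libraries lay above all TdTomato libraries, with LATS KO 5 and 6 closest to them. Timp2 rose in Yap OE (log2 fold change 9.83 ± 1.5 (SE), adjusted p = 0.0014) and in LATS KO (log2 fold change 7.57 ± 1.37 (SE), adjusted p = 0.0058), each against TdTomato. Without TdTomato 2, which held 11 of the 19 TdTomato counts, these log2 fold changes were 10.56 and 8.29, and the LATS KO one was 6.83 without LATS KO 3. Yap OE over LATS KO did not pass (log2 fold change 2.26 ± 0.87 (SE), adjusted p = 0.23), and passed without LATS KO 3 and TdTomato 1 (log2 fold change 3.00, adjusted p = 0.043).

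Timp3 (chr10:86300372-86349506, plus strand), the inhibitor that binds to the matrix and blocks ADAM17 and the ADAMTS aggrecanases, had 20.8, 24, 59.3, 57.7 and 8.74 CPM in Yap OE libraries 1 to 5, against 0, 3.59, 3.42 and 2.11 CPM in TdTomato libraries 1 to 4. It lay between 11.1 and 35.6 CPM in the LATS KO libraries (median 17.4). No LATS KO or Yap OE library reached down to the TdTomato libraries. Timp3 rose in Yap OE (log2 fold change 3.90 ± 0.87 (SE), adjusted p = 0.0059) and in LATS KO (log2 fold change 3.14 ± 0.82 (SE), adjusted p = 0.025). The LATS KO call ended without any 1 of LATS KO 2 and TdTomato 2 to 4 (adjusted p between 0.052 and 0.073). Timp1 (chrX:20870166-20874735, plus strand), a secreted inhibitor whose transcript is a common readout of injured liver, was at 0 counts in all 4 TdTomato libraries. It had 0.923, 0.852, 0.86, 1.25 and 1.14 CPM in Yap OE libraries 1 to 5 and 1.62, 2.39, 0, 0.395, 0 and 0 CPM in LATS KO libraries 1 to 6. Set against a floor of 3 counts (summed over the TdTomato libraries), Timp1 was at least 21.5-fold higher in Yap OE (adjusted p = 0.021) and at least 15.8-fold higher in LATS KO (adjusted p = 0.049), where 3 libraries were at 0. The Yap OE call ended without TdTomato 4 (adjusted p = 0.05), and the LATS KO call ended without any 1 of LATS KO 1, 2 and 4, Yap OE 1 to 5 and TdTomato 1 to 4 (adjusted p between 0.058 and 0.11). The LATS KO bound was 8.68 without LATS KO 2. Timp4, the remaining inhibitor, was too low to test, with 0.379, 0.614, 0, 0, 0 and 0 CPM in LATS KO libraries 1 to 6, 1 count over the Yap OE group and 0 over the TdTomato group. Fewer expressing cells and less RNA per cell cannot be told apart in these bulk samples, here or below.

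**Figure D2:**
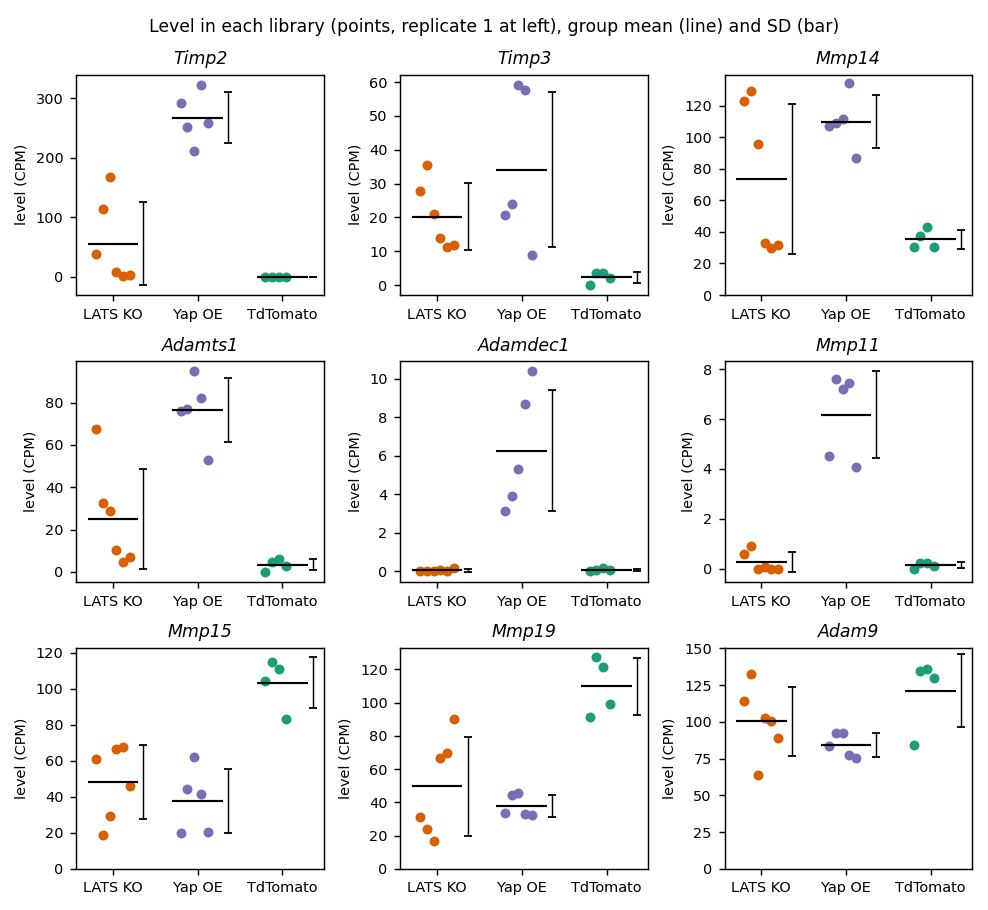
Level in CPM of 9 genes in each library (points, replicate 1 at left in each group), with the group mean (line) and SD (bar) for LATS KO (n = 6), Yap OE (n = 5) and TdTomato (n = 4). Timp2, Adamts1 and Mmp14 are split between LATS KO 1 to 3 and LATS KO 4 to 6, Adamdec1 and Mmp11 stand out in Yap OE, and Mmp15 and Mmp19 are higher in TdTomato than in every library of the other groups.

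Of the 4 membrane-type MMPs, 2 rose and 1 fell in Yap OE over TdTomato, 0 passed in LATS KO over TdTomato (3 at an unadjusted p under 0.05), and Mmp17 was too low to test. Of all tested genes 17.9% rose and 10.8% fell in Yap OE. Mmp14 (chr14:54431612-54445364, plus strand), the collagenase MT1-MMP, had 123, 129, 95.7, 33, 29.6 and 31.5 CPM in LATS KO libraries 1 to 6. It had 107, 109, 112, 134 and 86.9 CPM in Yap OE libraries 1 to 5 and 30.7, 37.6, 42.9 and 30.2 CPM in TdTomato libraries 1 to 4. LATS KO 1 to 3 lay at 95.7 to 129 CPM, within or near the Yap OE range, and LATS KO 4 to 6 at 29.6 to 33 CPM, at or just under the low end of the TdTomato range. Mmp14 rose in Yap OE (log2 fold change 1.64 ± 0.44 (SE), adjusted p = 0.013) and did not pass in LATS KO (log2 fold change 1.06 ± 0.42 (SE), adjusted p = 0.12). Mmp15 (chr8:95352268-95375080, plus strand), another membrane-type enzyme of epithelial cells, went the other way, with 60.8, 18.5, 29.3, 66.6, 67.6 and 45.9 CPM in LATS KO libraries 1 to 6. It had 19.8, 44.1, 62, 41.6 and 20.7 CPM in Yap OE libraries 1 to 5 and 104, 115, 111 and 83 CPM in TdTomato libraries 1 to 4. Every LATS KO and every Yap OE library lay below every TdTomato library. Mmp15 fell in Yap OE (log2 fold change -1.46 ± 0.39 (SE), adjusted p = 0.013) and did not pass in LATS KO (log2 fold change -1.10 ± 0.37 (SE), adjusted p = 0.068). Mmp24 (chr2:155775342-155818366, plus strand), best known from neurons, had 0 TdTomato counts and 0.392 to 0.935 CPM in Yap OE libraries, at least 16.1-fold higher (adjusted p = 0.028), a call that ended without any 1 of TdTomato 2 to 4 (adjusted p between 0.051 and 0.062). Its exons overlap BC029722 on the opposite strand, where reads averaged 20.2 CPM in Yap OE and 5.52 CPM in TdTomato libraries. Mmp24 had 173 counts over all libraries, against 5337 on the opposite strand. The counting used here is strand-specific, but 0.966% to 1.99% of the strand-specific gene counts of a library lay in the forward column. Whether reads of BC029722 entered the Mmp24 counts was not tested.

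Among the secreted MMPs the gelatinase Mmp2, which cuts basement membrane and denatured collagen, had 0 TdTomato counts and 0.646, 1.89, 3.22, 2.82 and 0.392 CPM in Yap OE libraries 1 to 5, at least 38-fold higher (adjusted p = 0.0048). In LATS KO libraries it reached at most 0.399 CPM and did not pass (adjusted p = 0.081). Mmp9, the gelatinase of neutrophils and macrophages, showed the opposite order, with 1.62, 8.57, 0, 1.1, 1.42 and 0.661 CPM in LATS KO libraries 1 to 6. It had 0.308, 0.296, 0.337, 0.536 and 0.706 CPM in Yap OE libraries 1 to 5 and 0, 0, 0.0794 and 0.0479 CPM in TdTomato libraries 1 to 4. LATS KO 2 was far above the rest and LATS KO 3 was at 0. The LATS KO level was 103 times (95% interval 28.4 to 856) that of TdTomato, where 2 counts were found (adjusted p = 0.014). This ratio, like those below, is of counts pooled over a group, in which deeper libraries such as LATS KO 2 weigh more, and it was 34.3 without LATS KO 2 and 166 without TdTomato 3. The call ended without TdTomato 2 (adjusted p = 0.054). All 5 Yap OE libraries lay above all TdTomato libraries, but Mmp9 did not pass there (adjusted p = 0.054). Yap OE over LATS KO did not pass either (adjusted p = 0.26).

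Mmp11 (chr10:75923222-75936496, minus strand), the stromelysin-3 of stromal cells, had 4.52, 7.63, 7.22, 7.47 and 4.08 CPM in Yap OE libraries 1 to 5, between 0 and 0.89 CPM in the LATS KO libraries (median 0.0219), and 0, 0.221, 0.238 and 0.0958 CPM in TdTomato libraries 1 to 4. The Yap OE libraries lay above all others, and the LATS KO and TdTomato libraries overlapped. Mmp11 rose in Yap OE over TdTomato (log2 fold change 5.42 ± 1.35 (SE), adjusted p = 0.0096) and missed the threshold over LATS KO (log2 fold change 4.47 ± 1.06 (SE), adjusted p = 0.058), which it passed without LATS KO 3 and TdTomato 1 (adjusted p = 0.0093). Mmp23 (chr4:155650655-155653384, minus strand), a membrane-linked MMP without the usual hemopexin domain, had 0.549 to 2.89 CPM in Yap OE libraries, and its level was 44.6 times (95% interval 12.2 to 371) that of TdTomato, where 2 counts came from 1 library (adjusted p = 0.02). The call ended without any 1 of TdTomato 2 and 4 (adjusted p between 0.058 and 0.061).

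Mmp19 (chr10:128790910-128800824, plus strand), a secreted MMP that cuts basement membrane proteins, was the member with the highest level per length in TdTomato livers and fell. It had 31.2, 23.6, 16.8, 66.6, 69.9 and 89.9 CPM in LATS KO libraries 1 to 6. It had 33.6, 44.7, 45.9, 33.2 and 32.6 CPM in Yap OE libraries 1 to 5 and 91.5, 127, 121 and 99.4 CPM in TdTomato libraries 1 to 4. All LATS KO and Yap OE libraries lay below all TdTomato libraries, LATS KO 1 to 3 further than LATS KO 4 to 6. The fall passed in Yap OE (log2 fold change -1.53 ± 0.40 (SE), adjusted p = 0.011) and not in LATS KO (log2 fold change -1.15 ± 0.37 (SE), adjusted p = 0.062). Both Mmp15 and Mmp19 kept their Yap OE call without each library in turn.

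Mmp12, the elastase of macrophages (chr9:7344381-7369499, plus strand), lies in the chromosome 9 cluster of MMP genes with Mmp13, Mmp8, Mmp27 and others. It had 0 counts in every TdTomato library, 1.72, 0.889, 1.68, 2.61 and 3.06 CPM in Yap OE libraries 1 to 5 and 1.08, 6.05, 0, 2.1, 1.08 and 0.3 CPM in LATS KO libraries 1 to 6. LATS KO 2 was highest and LATS KO 3 was at 0. Mmp12 was at least 42.5-fold higher in Yap OE (adjusted p = 0.0062) and at least 38-fold higher in LATS KO (adjusted p = 0.013), and 19.6 without LATS KO 2. Its neighbours Mmp13, Mmp8 and Mmp27, also at 0 in every TdTomato library, were too low to test and reached 1.47, 1.41 and 0.607 CPM in LATS KO and 1.14, 0.0784 and 0.549 CPM in Yap OE libraries. Mmp3, Mmp10, Mmp20, Mmp7 and Mmp1b of the cluster had fewer than 10 counts in all.

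Promoter sequence was available for 53 of the 85 named genes. The 250 bases before each RefSeq start (table build GRCm38.p6, the mm10 assembly) were searched on both strands for TGANTCA, the AP-1 motif, and GGAATG, the core of the TEAD motif through which YAP acts. AP-1 matches were found in 12 of their 58 promoters (20.7%), against 6.75% of 32851 promoters. TEAD matches were found in 3 of the 58 (5.17%), against 12.6%. A match is a description of letters and not a site. Below are the promoters of Mmp13 and of the second RefSeq start of Mmp12, with the AP-1 match in capitals at positions -35 (Mmp13) and -44 (Mmp12) from the start, Timp1, with the TEAD match in capitals at -247, and Adamts1, an abundant member with neither. They are given 5′ to 3′ and lie at chr9:7347124-7347373 for Mmp12 (plus strand), chr9:7272264-7272513 for Mmp13 (plus strand), chrX:20869916-20870165 for Timp1 (plus strand) and chr16:85803114-85803363 for Adamts1 (minus strand).
Mmp12: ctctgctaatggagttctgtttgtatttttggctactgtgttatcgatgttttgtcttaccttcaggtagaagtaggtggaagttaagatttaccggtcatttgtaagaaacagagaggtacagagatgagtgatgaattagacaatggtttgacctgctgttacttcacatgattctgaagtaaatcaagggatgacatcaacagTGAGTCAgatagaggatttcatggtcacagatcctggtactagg
Mmp13: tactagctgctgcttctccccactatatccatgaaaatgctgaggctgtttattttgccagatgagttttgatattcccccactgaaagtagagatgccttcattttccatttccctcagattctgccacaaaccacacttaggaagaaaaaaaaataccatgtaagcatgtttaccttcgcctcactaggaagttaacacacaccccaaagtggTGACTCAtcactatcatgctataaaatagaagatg
Timp1: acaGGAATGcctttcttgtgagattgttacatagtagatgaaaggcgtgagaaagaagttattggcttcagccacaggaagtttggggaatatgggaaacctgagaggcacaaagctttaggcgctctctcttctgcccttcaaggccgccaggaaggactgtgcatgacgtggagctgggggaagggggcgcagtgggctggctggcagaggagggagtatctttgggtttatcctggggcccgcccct
Adamts1: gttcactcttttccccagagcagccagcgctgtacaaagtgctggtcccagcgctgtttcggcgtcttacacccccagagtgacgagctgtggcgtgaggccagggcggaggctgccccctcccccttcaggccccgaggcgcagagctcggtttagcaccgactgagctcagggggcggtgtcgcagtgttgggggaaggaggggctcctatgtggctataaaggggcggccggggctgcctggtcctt

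Of 9 tested ADAMs with a catalytic zinc site, 4 rose in Yap OE and 2 in LATS KO, each over TdTomato, and 0 fell. The 4 include the secreted Adamdec1, described below. Of all tested genes 17.9% rose in Yap OE and 10% in LATS KO. Adam9 had 114, 133, 63.5, 103, 100.5 and 88.9 CPM in LATS KO libraries 1 to 6. It had 83.9, 92.3, 92.3, 77.7 and 75.3 CPM in Yap OE libraries 1 to 5 and 84.3, 135, 136 and 129.5 CPM in TdTomato libraries 1 to 4. TdTomato 1 lay below the other TdTomato libraries, and Adam9 passed in neither comparison (adjusted p = 0.08 in Yap OE and 0.46 in LATS KO). Without LATS KO 3 and TdTomato 1 it fell in Yap OE (log2 fold change -0.67, adjusted p = 0.0041). Adam10, the sheddase of Notch receptors and cadherins, had 74.1, 102, 31.4, 34.6, 29.3 and 29.2 CPM in LATS KO libraries 1 to 6. It had 66.7, 59.6, 74.8, 69.9 and 53.9 CPM in Yap OE libraries 1 to 5 and 20.4, 40.3, 39.9 and 32.6 CPM in TdTomato libraries 1 to 4. Its Yap OE libraries lay above all TdTomato libraries but did not pass (log2 fold change 0.96 ± 0.38 (SE), adjusted p = 0.066). Adam17, which releases TNF and EGF receptor ligands, lay at 27.9 to 30.7 CPM in the Yap OE libraries, at 20.1 to 45.7 CPM in the LATS KO libraries, highest in LATS KO 3, and at 0, 24.7, 23.3 and 21.4 CPM in TdTomato libraries 1 to 4, with adjusted p = 0.51 and 0.66. TdTomato 1 had 1466 counts on the opposite strand of Adam17, where Iah1 is annotated.

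Adam15, a sheddase of endothelial and epithelial cells, was low in TdTomato livers and higher in every other library. It had 3.94, 4.67, 5.13, 7.22 and 4.39 CPM in Yap OE libraries 1 to 5. It had 3.73, 15.8, 2, 3.29, 2.43 and 1.68 CPM in LATS KO libraries 1 to 6 and 0, 0.276, 0.318 and 0.479 CPM in TdTomato libraries 1 to 4. It rose in Yap OE (log2 fold change 4.18 ± 0.94 (SE), adjusted p = 0.0061) and in LATS KO (log2 fold change 4.11 ± 0.92 (SE), adjusted p = 0.013), where LATS KO 2 was far above the rest and the log2 fold change without it was 3.24. Adam33, known from mesenchymal cells, had 7.88, 9.48, 6.88, 8.01 and 6.82 CPM in Yap OE libraries 1 to 5 and 0.271, 1.41, 10.3, 0.132, 0.539 and 0.481 CPM in LATS KO libraries 1 to 6, with 1 count over the TdTomato group. Its level was 505 times (95% interval 90.5 to 20000) that of TdTomato in Yap OE (adjusted p = 0.0031) and 92 times (95% interval 16.3 to 3650) in LATS KO (adjusted p = 0.014), or 42.9 without LATS KO 3, which held the highest value. The LATS KO call ended without TdTomato 4 (adjusted p = 0.054). Adam19, a sheddase of neuregulins, had 0.954, 1.52, 2.51, 2 and 1.1 CPM in Yap OE libraries 1 to 5, between 0 and 5.56 CPM in the LATS KO libraries (median 0.607), and 0, 0.166, 0.238 and 0.0479 CPM in TdTomato libraries 1 to 4. It rose in Yap OE (log2 fold change 3.79 ± 1.33 (SE), adjusted p = 0.043), a call that ended without any 1 of LATS KO 1 and 4, Yap OE 1 to 5 and TdTomato 1 to 4 (adjusted p between 0.053 and 0.11), and did not pass in LATS KO (adjusted p = 0.087). Adam12 and Adam8 were called in neither, and their highest values, 4.7 and 3.22 CPM, were both in LATS KO 2.

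Adamdec1 (chr14:68563380-68582095, minus strand), a secreted ADAM-like protease known from gut macrophages and stromal cells, was the only member that differed between Yap OE and LATS KO in the fit of all 15 libraries. It had 3.11, 3.89, 5.31, 8.68 and 10.4 CPM in Yap OE libraries 1 to 5, against 0, 0, 0, 0.0877, 0 and 0.18 CPM in LATS KO libraries 1 to 6 and 0, 0.0552, 0.159 and 0.0479 CPM in TdTomato libraries 1 to 4. The lowest Yap OE library was far above every other library, and the LATS KO and TdTomato libraries overlapped near 0, with 5 and 4 counts per group. Adamdec1 was higher in Yap OE than in LATS KO (log2 fold change 6.93 ± 1.00 (SE), adjusted p = 0.0037) and than in TdTomato (log2 fold change 6.50 ± 1.17 (SE), adjusted p = 0.0024), and did not pass in LATS KO over TdTomato (adjusted p = 0.86). Each call held without any single library. Without LATS KO 6, 2 LATS KO counts were left (adjusted p = 0.0046 over LATS KO), and without TdTomato 3, 2 TdTomato counts (adjusted p = 0.0088 over TdTomato). Other calls between Yap OE and LATS KO depended on the method. Voom with quality weights called 28 members higher and 3 lower, beside 3702 and 3623 of all 13055 genes. DESeq2 called 6 members higher and 0 lower, beside 423 and 356 genes.

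The ADAMs without a catalytic site or of the germ line gave 0 calls among 3 tested in both comparisons with TdTomato in edgeR, with 1 at an unadjusted p under 0.05 in Yap OE and 0 in LATS KO. Adam11 had 0 to 33.3 CPM in LATS KO, 6.74 to 22 CPM in Yap OE and 9.86 to 29.2 CPM in TdTomato libraries. Adam23, like Adam11 best known from neurons, had 6.86, 14.3, 9.84, 12.3 and 6.9 CPM in Yap OE libraries 1 to 5 and 0, 3.14, 2.46 and 2.78 CPM in TdTomato libraries 1 to 4, with no overlap, and did not pass (adjusted p = 0.14). The fertilin-like germ line genes Adam21 and Adam3 had 7.43 and 5.19 CPM in TdTomato 1 and at most 1 count in any other library, and neither was tested.

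The ADAMTS proteoglycanases, which cut versican and aggrecan, all had higher group means in Yap OE and LATS KO livers. Of 5 tested, 4 rose in Yap OE and 3 in LATS KO over TdTomato, where 17.9% and 10% of all tested genes rose. Adamts1 (chr16:85793827-85803113, minus strand) had 67.3, 32.3, 28.8, 10.5, 4.72 and 6.85 CPM in LATS KO libraries 1 to 6. It had 75.9, 76.8, 94.7, 82.1 and 52.8 CPM in Yap OE libraries 1 to 5 and 0, 4.69, 6.2 and 2.97 CPM in TdTomato libraries 1 to 4. LATS KO 5 lay within the TdTomato range and the other LATS KO libraries above it. Adamts1 rose in Yap OE (log2 fold change 4.46 ± 0.96 (SE), adjusted p = 0.0052) and in LATS KO (log2 fold change 2.85 ± 0.88 (SE), adjusted p = 0.047), where the call ended without any 1 of LATS KO 1 to 3, Yap OE 1 to 5 and TdTomato 1 to 4 (adjusted p between 0.051 and 0.12) and the log2 fold change was 2.26 without LATS KO 1. Adamts5, the main aggrecanase of cartilage, had 18.3, 39.6, 40.3, 2.59, 0.877 and 0.781 CPM in LATS KO libraries 1 to 6 and 33.4, 37.3, 30.7, 31.8 and 35.6 CPM in Yap OE libraries 1 to 5. In TdTomato libraries 1 to 4 it had 9.37, 0.0552, 0 and 0.144 CPM, so TdTomato 1 alone was well above 0. Adamts5 did not pass in Yap OE (log2 fold change 3.84 ± 1.51 (SE), adjusted p = 0.068) or LATS KO (log2 fold change 2.85 ± 1.42 (SE), adjusted p = 0.23). Without LATS KO 3 and TdTomato 1 it passed in both, with log2 fold changes of 8.69 and 7.26 (adjusted p = 0.0021 and 0.012).

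Adamts9, which also acts in the trafficking of secreted proteins, had 0 TdTomato counts and 0.369, 2.26, 3.93, 1.93 and 0.588 CPM in Yap OE libraries 1 to 5. It lay between 0 and 0.921 CPM in the LATS KO libraries (median 0.467). It was at least 38-fold higher in Yap OE (adjusted p = 0.0041) and at least 10.2-fold higher in LATS KO (adjusted p = 0.021), and the LATS KO call ended without any 1 of TdTomato 2 to 4 (adjusted p between 0.05 and 0.06). Adamts15, a versican-cutting enzyme, had 2.62, 2.15, 1.83, 2.14 and 1.8 CPM in Yap OE libraries 1 to 5, 0.541, 0.86, 11, 0.351, 0 and 0 CPM in LATS KO libraries 1 to 6, and 1 count over the TdTomato group. LATS KO 3 was far above the other LATS KO libraries. The ratio to TdTomato was 138 times (95% interval 24.5 to 5450) in Yap OE (adjusted p = 0.019) and 81.8 times (95% interval 14.5 to 3250) in LATS KO (adjusted p = 0.038), and 28.2 without LATS KO 3. The Yap OE call ended without any 1 of TdTomato 3 and 4 (adjusted p between 0.05 and 0.058) and the LATS KO call without any 1 of LATS KO 2, Yap OE 1 to 5 and TdTomato 1 to 4 (adjusted p between 0.053 and 0.11), and also without LATS KO 3 and TdTomato 1 together (adjusted p = 0.071). Adamts4, the other main aggrecanase, had 0.769 to 2.04 CPM in Yap OE and 0 to 0.239 CPM in TdTomato libraries and rose there (log2 fold change 3.43 ± 1.07 (SE), adjusted p = 0.026), a call that ended without any 1 of Yap OE 2 and 4 and TdTomato 2 and 3 (adjusted p between 0.051 and 0.068). Its LATS KO libraries, at 0 to 1.73 CPM, did not pass (adjusted p = 0.15).

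Both tested procollagen N-propeptidases, which trim fibrillar procollagens before fibres form, rose in Yap OE, where 17.9% of all tested genes rose. Adamts2 had 0.985, 3.59, 3.44, 4.57 and 0.47 CPM in Yap OE libraries 1 to 5, 1.08, 4.24, 0, 0.132, 0.0674 and 0.3 CPM in LATS KO libraries 1 to 6 and 0 TdTomato counts, at least 55.6-fold higher in Yap OE (adjusted p = 0.011) and at least 20.9-fold higher in LATS KO (adjusted p = 0.041). LATS KO 2 carried most of the LATS KO level, and the bound was 6.8 without it. The LATS KO call ended without any 1 of LATS KO 1 and 2, Yap OE 1 to 4 and TdTomato 1 to 4 (adjusted p between 0.055 and 0.094). Adamts14 had 0.462 to 2.68 CPM in Yap OE libraries, 44.1 times (95% interval 12 to 367) the TdTomato level, where 2 counts were found (adjusted p = 0.017), and did not pass in LATS KO (adjusted p = 0.32). Adamts3 was too low to test. Of the other ADAMTS genes, Adamts10, which binds fibrillin, had 12.5, 17.9, 15.2, 18.6 and 12.1 CPM in Yap OE libraries 1 to 5. It had 5.41, 4.45, 5.89, 3.24, 1.69 and 2.1 CPM in LATS KO libraries 1 to 6 and 0, 0.717, 2.38 and 0.527 CPM in TdTomato libraries 1 to 4. Every Yap OE library lay above every LATS KO and TdTomato library. It rose in Yap OE over TdTomato (log2 fold change 4.08 ± 0.88 (SE), adjusted p = 0.0051), with a log2 fold change of 5.15 without TdTomato 3, and did not pass in LATS KO (adjusted p = 0.1) or in Yap OE over LATS KO (adjusted p = 0.17, or 0.0076 without LATS KO 3 and TdTomato 1). Adamts7, which cuts cartilage oligomeric matrix protein, had 11.8 to 35.1 CPM in LATS KO, 16.3 to 36.5 CPM in Yap OE and 5.79 to 19.7 CPM in TdTomato libraries and passed in neither (adjusted p = 0.35 and 0.067). Adamts13, the protease of von Willebrand factor made by stellate cells, was too low to test and reached 0.661 CPM in LATS KO, 0.357 CPM in Yap OE and 4.18 CPM in TdTomato libraries, the last in TdTomato 1.

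Of 4 tested ADAMTS-like genes, whose products bind fibrillin microfibrils, 3 rose in Yap OE and 1 in LATS KO over TdTomato. The shares of all tested genes that rose were 17.9% and 10%. Adamtsl4 had 6.43, 4.19, 6.73, 8.01 and 4.04 CPM in Yap OE libraries 1 to 5. It had 4.27, 10.1, 0, 0.438, 1.08 and 0.24 CPM in LATS KO libraries 1 to 6 and 0, 0.0552, 0 and 0.144 CPM in TdTomato libraries 1 to 4. It rose in Yap OE (log2 fold change 6.56 ± 1.55 (SE), adjusted p = 0.0076) and in LATS KO (log2 fold change 5.45 ± 1.47 (SE), adjusted p = 0.028). Without TdTomato 4, 1 TdTomato count was left (adjusted p = 0.019 in Yap OE), and without LATS KO 2 the LATS KO log2 fold change was 4.29. The LATS KO call ended without any 1 of LATS KO 2 and TdTomato 1 to 4 (adjusted p between 0.055 and 0.083). Adamtsl5 had 2.34, 1.63, 1.38, 2.07 and 2.98 CPM in Yap OE libraries 1 to 5, between 0 and 0.553 CPM in the LATS KO libraries (median 0.167), and 0, 0.11, 0.0794 and 0.0958 CPM in TdTomato libraries 1 to 4, and it rose in Yap OE over TdTomato (log2 fold change 4.70 ± 0.95 (SE), adjusted p = 0.004). All Yap OE libraries lay above all LATS KO libraries, and that difference passed without LATS KO 3 and TdTomato 1 (adjusted p = 0.0057) and not with them (adjusted p = 0.056). Adamtsl2 had 0 TdTomato counts, 0.308, 3, 3.11, 4.86 and 0.745 CPM in Yap OE libraries 1 to 5 and 0.162, 0.706, 6.33, 0.0877, 0.0674 and 0.0601 CPM in LATS KO libraries 1 to 6. It was at least 50.6-fold higher in Yap OE (adjusted p = 0.017), and in LATS KO, where LATS KO 3 held most of the level, it did not pass (adjusted p = 0.051).

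**Figure D3:**
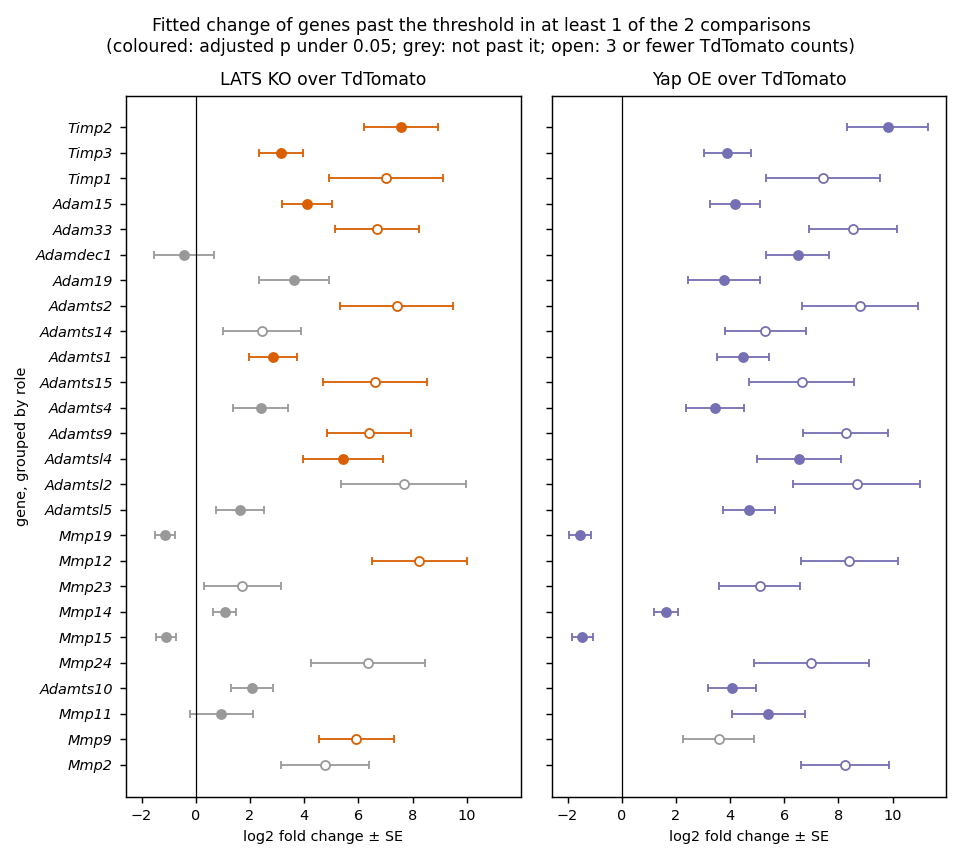
Fitted log2 fold change with its SE (horizontal axis) of the 26 genes past the threshold in at least 1 comparison with TdTomato, for LATS KO (left) and Yap OE (right), with genes grouped by role. Coloured points have an adjusted p under 0.05 and grey points do not; open points had 3 or fewer TdTomato counts, so that their fitted value depends on the prior count and is no bound. Mmp15 and Mmp19 are the points left of 0 in both panels, and Adamdec1 is left of 0 only in the LATS KO panel, where it did not pass.

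The 19 members too low to test were Adam22, Adam21, Mmp1a, Adamts19, Adamts13, Adam3, Mmp13, Adamts12, Adam1a, Mmp8, Mmp17, Adamts16, Mmp27, Adam4, Adam5, Timp4, Mmp28, Adamtsl3 and Adamts3. Their highest value in any library was 7.43 CPM. In LATS KO 3 and TdTomato 1 some of them had reads on both strands. Mmp1a had 96 counts in TdTomato 1 and 0 elsewhere, with 66 on the opposite strand, and Adamts19 had 65 in LATS KO 3 and 0 elsewhere, with 62 on the opposite strand. The number of members with a count ran from 19 to 51 over the LATS KO libraries, from 49 to 53 over the Yap OE libraries, and from 15 to 32 over the TdTomato libraries. The lowest values were those of LATS KO 3 and TdTomato 1, without which the ranges were 34 to 51 and 28 to 32. Without them, genes detected over all symbols ran from 14085 to 15641 in LATS KO, 15181 to 15493 in Yap OE and 13372 to 13559 in TdTomato libraries.

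Levels of different genes were compared as CPM per kilobase of annotated exon. In Yap OE livers the 5 highest members were Timp2, Adam9, Mmp14, Adamts1 and Adam10, with Timp2 at 68.6 ± 11 and Adam9 at 20.5 ± 1.93 CPM per kb (SD, n = 5). In LATS KO livers they were Adam9, Timp2, Mmp19, Mmp14 and Adam10, with Adam9 at 24.4 ± 5.69 and Timp2 at 14.3 ± 17.8 (SD, n = 6), neighbours that do not differ beyond their spread. In TdTomato livers they were Mmp19, Adam9, Mmp15, Adam10 and Mmp14, with Mmp19 at 31.1 ± 4.85 and Adam9 at 29.5 ± 6.01 (SD, n = 4), also within their spread, and Timp2 ranked 21 of the 57.

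Summed per class on that scale, the 4 TIMPs averaged 17.6 ± 19 CPM per kb in LATS KO, 73.9 ± 11.4 in Yap OE and 0.351 ± 0.263 in TdTomato livers (SD, n = 6, 5 and 4). The 20 ADAMTS and ADAMTS-like genes averaged 12 ± 8.2, 28.2 ± 5.04 and 3.82 ± 1.56 in the same order. The 15 MMPs averaged 36.9 ± 5.59, 40.4 ± 7.35 and 57.2 ± 7.13, and the 18 ADAMs 44.2 ± 12.3, 46.4 ± 3.61 and 43.1 ± 7.86. TIMP and ADAMTS transcript was thus higher in Yap OE than in TdTomato libraries without overlap, and the ADAM sums overlapped. The MMP sum was lower in every Yap OE library (at most 47.95) than in every TdTomato library (at least 48.6), by a narrow margin. LATS KO libraries also lay apart from TdTomato, with MMP sums of at most 42.7 and TIMP sums of at least 1.94, against at most 0.596. Their ADAMTS and ADAM sums overlapped those of TdTomato. The lower MMP sum in Yap OE came mainly from Mmp19 and Mmp15, which averaged 31.1 and 19.1 CPM per kb in TdTomato and 10.8 and 6.97 in Yap OE livers. Mmp14 went from 5.93 to 18.4, and Mmp11, Mmp2, Mmp12, Mmp23 and Mmp24 were also higher in Yap OE, so the sum does not stand for the class. The TIMP sum divided by the MMP sum was 0.0507 to 1.74 in LATS KO, 1.3 to 2.29 in Yap OE and 0 to 0.00935 in TdTomato libraries. Timp2 made up 29.5% to 94.4% of the TIMP sum in LATS KO, 86.8% to 96.6% in Yap OE and 16% to 26.1% in TdTomato libraries 2 to 4, with no TIMP count in TdTomato 1. Mmp14 made up 13% to 61.2% of the MMP sum in LATS KO, 39% to 52.4% in Yap OE and 9.51% to 11.5% in TdTomato libraries. These sums are descriptions of transcript levels and carry no test.

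**Figure D4:**
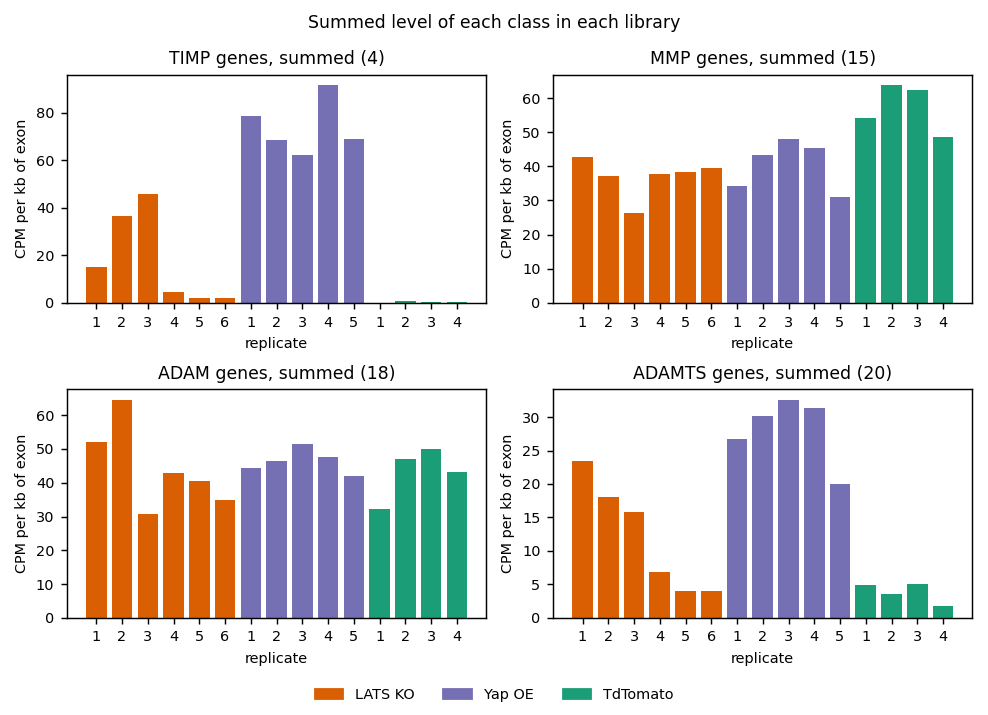
Summed level of the TIMP, MMP, ADAM and ADAMTS (with ADAMTS-like) genes in each library, in CPM per kb of exon, for LATS KO, Yap OE and TdTomato libraries (1 bar per library, numbers are replicates). The TIMP bars reach 62.3 to 91.4 in Yap OE and stay below 1 in TdTomato, and within LATS KO the bars of libraries 1 to 3 are above those of libraries 4 to 6 in the TIMP and ADAMTS panels.

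Genes known to activate, inhibit or be cut by these proteases were counted beside the shares of all tested genes, of which 17.9% rose and 10.8% fell in Yap OE and 10% rose and 0.973% fell in LATS KO. Of 10 tested genes of plasminogen activation, which starts a cascade that activates secreted MMPs, 6 rose and 2 fell in Yap OE and 4 rose and 1 fell in LATS KO over TdTomato. Anxa2, a plasminogen and plasminogen activator receptor, averaged 235 ± 268 CPM in LATS KO, 303 ± 103 CPM in Yap OE and 0.607 ± 0.422 CPM in TdTomato libraries (SD). It rose in LATS KO (log2 fold change 8.56 ± 1.52 (SE), adjusted p = 0.0055) and in Yap OE (log2 fold change 8.93 ± 1.55 (SE), adjusted p = 0.0022). Plau, the urokinase, had 1 TdTomato count and was 1240 times (95% interval 222 to 49000) the TdTomato level in Yap OE (adjusted p = 0.0013) and 724 times (95% interval 130 to 28600) in LATS KO (adjusted p = 0.0046). Its receptor Plaur, with 2 TdTomato counts, was 341 times (95% interval 94.1 to 2810) and 544 times (95% interval 150 to 4490) that level (adjusted p = 0.0041 and 0.0062). The LATS KO ratio was 329 for Plau without LATS KO 2, and 357 for Plaur without LATS KO 3. With TdTomato 3 left out, the Plaur ratios were 548 in Yap OE and 876 in LATS KO, each on 1 TdTomato count, and TdTomato 2 held the 1 Plau count. Of 5 tested proprotein convertases, which cut the prodomains of membrane-type MMPs and ADAMs, 2 fell in Yap OE and 0 passed in LATS KO. Furin averaged 143 ± 20.9 CPM in Yap OE and 277 ± 103 CPM in TdTomato libraries (log2 fold change -0.95 ± 0.26 (SE), adjusted p = 0.015) and Pcsk6 55.1 ± 8.07 CPM in Yap OE and 147 ± 42 CPM in TdTomato libraries (log2 fold change -1.42 ± 0.30 (SE), adjusted p = 0.0049). In LATS KO Pcsk6 had adjusted p = 0.16, and 1 gene of the list had an unadjusted p under 0.05.

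Of 7 tested iRhoms and tetraspanins that escort ADAM10 and ADAM17, 4 rose and 1 fell in Yap OE, and 3 rose in LATS KO. Rhbdf1 averaged 27.4 ± 23.1 CPM in LATS KO, 60.3 ± 11.8 CPM in Yap OE and 2.58 ± 1.72 CPM in TdTomato libraries (SD). It rose in LATS KO (log2 fold change 3.40 ± 0.90 (SE), adjusted p = 0.025) and in Yap OE (log2 fold change 4.54 ± 0.96 (SE), adjusted p = 0.0049). Tspan17 had log2 fold change 4.83 ± 1.18 (SE), adjusted p = 0.0089 in Yap OE and log2 fold change 3.87 ± 1.12 (SE), adjusted p = 0.037 in LATS KO, and Tspan15 log2 fold change 3.68 ± 1.10 (SE), adjusted p = 0.043 in LATS KO. Tspan33 fell in Yap OE (log2 fold change -3.14 ± 0.88 (SE), adjusted p = 0.016). Of 17 tested membrane proteins shed by ADAM10 or ADAM17, 6 rose and 2 fell in Yap OE and 4 rose in LATS KO. The hyaluronan receptor Cd44 and the receptor kinase Axl rose in both, Cd44 with log2 fold change 6.08 ± 0.93 (SE), adjusted p = 0.0014 in Yap OE and log2 fold change 7.23 ± 0.96 (SE), adjusted p = 0.0027 in LATS KO, and Axl with log2 fold change 6.67 ± 1.02 (SE), adjusted p = 0.0014 in Yap OE and log2 fold change 7.05 ± 1.03 (SE), adjusted p = 0.0032 in LATS KO. Cxcl16 rose in Yap OE (log2 fold change 2.52 ± 0.55 (SE), adjusted p = 0.0054) and the growth factor Hbegf in LATS KO (log2 fold change 4.98 ± 1.17 (SE), adjusted p = 0.015).

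Of 12 tested matrix substrates, 8 rose in Yap OE and 5 in LATS KO. Col3a1, a fibrillar collagen, averaged 1.25 ± 1.09 CPM in LATS KO, 46.2 ± 34.2 CPM in Yap OE and 0.0932 ± 0.152 CPM in TdTomato libraries (SD). It was higher in Yap OE than in TdTomato (log2 fold change 9.02 ± 1.34 (SE), adjusted p = 0.0012) and than in LATS KO (log2 fold change 5.16 ± 0.88 (SE), adjusted p = 0.011). Col1a2, with 3 TdTomato counts, was 296 times (95% interval 101 to 1440) the TdTomato level in Yap OE (adjusted p = 0.0016) and 20.3 times (95% interval 6.77 to 100) in LATS KO (adjusted p = 0.041), and was higher in Yap OE than in LATS KO (log2 fold change 4.15 ± 0.86 (SE), adjusted p = 0.032). Col1a1 had 4.83, 11.6, 17.3, 23.1 and 2.78 CPM in Yap OE libraries 1 to 5, 1.19, 6.14, 0, 1.45, 0.337 and 0.24 CPM in LATS KO libraries 1 to 6 and 0 counts in TdTomato libraries. It was at least 254-fold higher in Yap OE (adjusted p = 0.004) and at least 33.5-fold higher in LATS KO (adjusted p = 0.023), a bound of 13.8 without LATS KO 2, which held most of its LATS KO counts. Of 10 tested other matrix proteases, 1 rose and 1 fell in Yap OE and 2 rose in LATS KO, where the lysosomal Ctss rose in both (log2 fold change 6.13 ± 0.95 (SE), adjusted p = 0.0015 in Yap OE and log2 fold change 6.12 ± 0.94 (SE), adjusted p = 0.0035 in LATS KO), Ctsh fell in Yap OE (log2 fold change -0.91 ± 0.32 (SE), adjusted p = 0.041), and Prss23, with 2 TdTomato counts, was 233 times (95% interval 64.2 to 1930) the TdTomato level in LATS KO (adjusted p = 0.015), or 125 without LATS KO 2 and 375 without TdTomato 3. Of 3 tested non-TIMP inhibitors, Tfpi2 fell in Yap OE (log2 fold change -2.05 ± 0.58 (SE), adjusted p = 0.016), and none passed in LATS KO, where A2m had adjusted p = 0.26 and 0 had an unadjusted p under 0.05.

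Several of these calls ended when 1 library was left out. In LATS KO over TdTomato the call of Rhbdf1 ended without any 1 of LATS KO 2 and TdTomato 2 to 4 (adjusted p between 0.052 and 0.068), that of Tspan17 without any 1 of LATS KO 1 to 3, Yap OE 1 to 5 and TdTomato 1 to 4 (adjusted p between 0.051 and 0.11) and that of Tspan15 without any 1 of LATS KO 1, 2, 4 and 5, Yap OE 1 to 5 and TdTomato 1 to 4 (adjusted p between 0.052 and 0.1). The LATS KO calls of Hbegf and Prss23 ended without any 1 of TdTomato 2 and 4 (adjusted p between 0.052 and 0.054) and without any 1 of TdTomato 2 and 4 (adjusted p between 0.052 and 0.055), that of Col1a1 without any 1 of TdTomato 2 to 4 (adjusted p between 0.054 and 0.062) and that of Col1a2 without any 1 of LATS KO 1, 2 and 4, Yap OE 1 to 4 and TdTomato 1 to 4 (adjusted p between 0.051 and 0.11). In Yap OE over TdTomato, Furin ended without TdTomato 3 (adjusted p = 0.055) and Ctsh without any 1 of Yap OE 1 to 4 and TdTomato 2 to 4 (adjusted p between 0.073 and 0.13). In Yap OE over LATS KO, Col3a1 ended without Yap OE 4 (adjusted p = 0.056) and Col1a2 without any 1 of LATS KO 1, 4, 5 and 6 and Yap OE 1 to 4 (adjusted p between 0.056 and 0.14). Without LATS KO 2 the LATS KO log2 fold changes were 6.21 for Axl and 5.38 for Ctss, and without LATS KO 3 they were 2.96 for Tspan17 and 4.01 for Hbegf. Without TdTomato 4 the log2 fold changes in LATS KO and Yap OE were 7.77 and 7.39 for Axl, 7.25 and 7.25 for Ctss, and 4.51 and 5.47 for Tspan17. Cd44 and Col3a1 kept their calls over TdTomato without TdTomato 4 and without TdTomato 3, where 3 and 1 TdTomato counts were left.

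Markers of other cell types were summed in the same libraries. Summed CPM of 12 stellate cell and fibroblast markers was 0 to 23.6 in LATS KO, 29.6 to 192 in Yap OE and 0.0774 to 12.3 in TdTomato libraries, with Col1a1 and Acta2 at 0 in all TdTomato libraries. The sum of 11 macrophage and Kupffer cell markers was 154 to 1318, 406 to 834 and 4.63 to 19.6 in the same order. For 8 cholangiocyte markers it was 109 to 4453, 3833 to 6311 and 45.2 to 61.5, with Cftr at 0 in all TdTomato libraries. For 8 endothelial markers it was 20.1 to 274, 114 to 178 and 23.2 to 53, and for 6 monocyte markers 11.2 to 131, 10.8 to 33.9 and 1.51 to 7.82. Neutrophil markers (8) gave 1.38 to 23.8, 1.15 to 5.54 and 0.166 to 5.73, lymphocyte markers (5) 0 to 1.08, 0.0715 to 0.51 and 0 to 0.0479, and mesothelial markers (3) 0 to 32.7, 0.118 to 0.5 and 0 CPM. The macrophage, monocyte, neutrophil and mesothelial sums all had their highest value in LATS KO 2. Members of several classes were also highest in that library, among them Mmp9, Mmp12, Adam8, Adam12, Adam10, Adam15, Adam19, Adamtsl4 and Timp1. In Yap OE over TdTomato 10 of 11 macrophage, 10 of 12 stellate, 6 of 7 cholangiocyte and 3 of 5 monocyte markers tested rose. In LATS KO over TdTomato 11 of 11, 4 of 12, 5 of 7 and 4 of 5 rose in the same order. In each comparison 2 of 8 endothelial and 1 of 5 tested neutrophil markers rose. Of all tested genes 17.9% rose in Yap OE and 10% in LATS KO. No lymphocyte or mesothelial marker was tested. The part of these cell types in the protease and inhibitor levels was not tested.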

How the data were processed

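Gene counts of 15 liver libraries were used as the authors deposited them, 1 table per library. Reads were processed with FastQC, Trimmomatic and STAR on mm10, per the submitters' processing notes, with versions not given in the sources used here. Each table holds an unstranded and 2 strand-specific count columns. The labels' protocols name a directional kit, and the reverse-strand column was used, since the forward column held 0.966% to 1.99% of their sum. Lines that name no gene (14.2% to 92.5% of a library) were left out.

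Counts were tested in R 4.3.3 with edgeR 4.0.16 (TMM scaling, filterByExpr, robust quasi-likelihood test), with 1 fit of the 3 groups and 12 residual degrees of freedom. Benjamini-Hochberg adjustment ran over all 13055 genes tested, with a threshold of 0.05. The script was checked on simulated counts. CPM are counts scaled to the TMM-adjusted library size. For genes without TdTomato counts, folds are bounds against a floor of 3 counts over the group, from the group's mean CPM or its pooled counts, whichever is smaller. For 1 to 3 counts, ratios of pooled counts carry exact 95% intervals. Both cover counting error only. Positions and exon lengths come from GENCODE M21 (GRCm38), which matched 23376 of 24411 symbols, and promoters from RefSeq. DESeq2 1.42.0, limma 3.58.1 and other filters, scalings and library sets were alternatives. Libraries of a group differed by more than sampling noise (chi-square per degree of freedom 26.27 to 866.1 over 31 pairs).

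Members and gene lists were chosen with earlier results of these data known. Per-library values are given for the TIMPs, Adamdec1, members past the threshold in any comparison and members averaging 5 CPM or more, and low ones by range. At most 3 genes of each companion list, those with the smallest adjusted p, are named. 1 gene that this rule names is not reported here.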

Additional observations from a re-analysis of the deposited data

Results flagged for a closer look

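In 17 of 94 groups tested over 34 named members, 1 library lay apart from the others of its group by Dixon's criterion. For normally distributed values chance meets it in about 1 of 20 groups. These CPM hold many zeros, where a single library above 0 always meets it, and the genes share the same libraries. The count of 17 can therefore not be set against that rate. LATS KO 2 was the highest LATS KO library for Adam15 (15.8 CPM), Mmp12 (6.05), Adamts2 (4.24), Adam19 (5.56), Mmp9 (8.57) and Mmp23 (0.491 CPM). LATS KO 3 was the highest for Adam17 (45.7 CPM), Adam33 (10.3), Adamts15 (11) and Adamtsl2 (6.33 CPM). TdTomato 1 was the lowest TdTomato library for Adam9 (84.3 CPM) and Adam17 (0) and the highest for Adamts5 (9.37 CPM). The remaining values rest on few counts: Adam33 and Adamts15 in TdTomato 2 (0.0552 CPM each), Mmp23 in TdTomato 3 (0.159) and Timp4 in Yap OE 3 (0.0374 CPM).

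Adamdec1 was higher in Yap OE than in LATS KO libraries, by a log2 fold change of 6.93, in a direct test of the difference. Outside the reverse-strand counts, reads on the opposite strand of Mmp24, where BC029722 is annotated, averaged 18.6 CPM in LATS KO and 20.2 CPM in Yap OE, against 5.52 CPM in TdTomato libraries.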

How the results depend on the processing

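Of the 25 members called in Yap OE over TdTomato, 19 kept their call under every alternative that tested them and without each library in turn, and Adamdec1 did so over LATS KO. DESeq2 gave no adjusted p for Adam33, 1 of the 19, or for Adamts15. In LATS KO over TdTomato 0 of the 12 did. Members higher in LATS KO than in TdTomato numbered 12 in the main fit, 19 with DESeq2, 0 with the 2 groups alone, 4 with the replicate block, and 4 to 14 without 1 library. Over all tested genes the counts in that order were 1311, 2535, 0, 582 and 554 to 1625. Members lower there numbered 0 in the main fit, 1 with RLE scaling, 2 with DESeq2, 4 with voom, 2 with a filter of 10 counts in all (Adam21 and Adam3), and 0 to 1 without 1 library. Over all tested genes the counts in that order were 127, 144, 359, 1395, 135 and 34 to 189. The filter of 10 counts tested 15591 genes, and the main, RLE, DESeq2 and voom fits 13055. In Yap OE over TdTomato the filter of 10 counts gave 4 lower, adding Adam21 and Adam3, which were seen mainly in TdTomato 1. Over all genes it called 1411 lower there. In Yap OE over LATS KO members higher numbered 2 with RLE or with the 2 groups alone, 6 with DESeq2, 28 with voom, 11 without TdTomato 1 and LATS KO 3, and 1 to 5 without 1 library, and members lower 3 with voom and 1 without those 2 libraries. Over all tested genes the higher counts in that order were 78 or 89, 423, 3702, 737 and 23 to 189. The lower counts were 3623 with voom and 951 without those libraries. The cause of these shifts was not tested. The labels state no pairing by replicate number, and same-numbered deviations correlated between -0.249 and 0.232, over 0.1 in 4 of 13 pairs. Pairs of different numbers were not computed for comparison, so this check cannot exclude a pairing. RLE scaling moved the median of all genes in Yap OE over TdTomato to 0.34, against 0.17 with TMM, and both falls there kept their call. Directions reversed for uncalled values only: in LATS KO over TdTomato with voom, Adam17 (-0.0332), Mmp14 (-0.13) and Adam10 (-0.21), Adam17 without TdTomato 1 and LATS KO 3 (-0.0145), and Adam11 in Yap OE without TdTomato 3 (0.12, lowest -0.54 without Yap OE 3). Over single genes, 2002 values kept direction and side of the threshold, 195 lost it and 63 gained it. Low counts limit all genes with 3 or fewer TdTomato counts.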
